A study of Homo sapiens with 16 samples.

Results

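The histone genes described here are the 71 protein-coding genes whose names begin with HIST1H, HIST2H, HIST3H or HIST4H, out of 58735 genes in the count table, 19951 of them protein-coding. They were chosen by name and biotype alone, and 19 further genes with such names were left out because the table does not class them as protein-coding. Poly(A)-selected RNA was sequenced from 16 libraries of 4 human breast cancer cell lines, HCC1806, BT474, CAL148 and ZR-75-30, as 8 groups of 2 libraries. HCC1806 and BT474 had been grown as flat monolayers and as spheroids for 10 and 20 days, whereas CAL148 and ZR-75-30 were grown as monolayers only. HCC1806 and ZR-75-30 were kept in RPMI 1640 and BT474 and CAL148 in DMEM, both with 10% fetal bovine serum. Between a line in RPMI 1640 and a line in DMEM, line and medium therefore cannot be told apart. The titles gave the groups here; another label names a monolayer treatment for all 16 libraries. Each line is one established line, and nothing in the labels says whether replicates were separate cultures, so p-values measure only the spread between these libraries.

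Histones package DNA: pairs of H2A, H2B, H3 and H4 form the nucleosome core, and linker histone H1 binds where DNA enters and leaves it. Replication-dependent histone genes lie in clusters, are mostly intronless and are transcribed in S phase, when new DNA must be packaged. Their mRNAs end in a conserved stem-loop, bound by the stem-loop binding protein SLBP, in place of a poly(A) tail, and they are lost quickly when replication stops. Some of these genes also make longer, polyadenylated transcripts through a downstream poly(A) signal, which have been described in differentiating and resting cells. A poly(A)-selected library therefore samples mainly such polyadenylated forms, and the counts below are not levels of all histone mRNA.

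Library totals ranged from 29.7 to 72.5 M counts, and between 45 and 59 of the 71 histone genes had any count in a library. A count of 3, the most that an observed count of 0 allows, equals 0.0414 to 0.101 CPM (levels brought to 1 shared library size) across the libraries. Low counts were mostly even, with 1.51 to 2.04 even values for each odd one among counts of 1 to 20, so counts are not independent molecules, and floors and intervals cover counting error only. Summed markers of epithelial cells lay between 1713 and 8577 CPM in every library, whereas summed fibroblast markers lay between 1.79 and 102 CPM, endothelial markers between 0.195 and 8.60 CPM and leukocyte markers between 0 and 24.9 CPM. The 2 HCC1806 monolayer libraries stood apart from each other: mitochondrial genes took 17.8% of the counts in replicate 1 and 0.768% in replicate 2. The same share was 1.96% and 20.5% in the ZR-75-30 monolayers, and it lay between 1.09% and 6.30% in the other 12 libraries.

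The stem-loop itself was searched for after the stop codon in the annotated transcripts of GENCODE 29 on GRCh38, and 32 of the 71 histone genes held it. It was found in 36 of 82 protein-coding transcripts of the histone genes (43.9%). For all other genes the whole transcript was searched, coding part included, and 41 of 83047 protein-coding transcripts held it (0.0494%). Many of the other histone models, such as that of HIST1H2BK, end at the stop codon, so that no stem-loop could be found in them. The 32 genes used 6 versions of the stem-loop, shown here with the 2 arms of the stem in capitals and the loop in lower case. Sequences are in the direction of the mRNA, with T for U. They are shown because the pairing arms differ by histone type.
HIST1H2AC (also 16 other genes): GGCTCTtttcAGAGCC
HIST1H4H (also 4 other H4 genes): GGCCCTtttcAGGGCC
HIST1H2BD (also 4 other genes): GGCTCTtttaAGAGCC
HIST2H4B (also 2 other H4 genes): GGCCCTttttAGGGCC
HIST1H3E: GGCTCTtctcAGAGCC
HIST1H2AG: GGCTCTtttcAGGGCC
The 8 H4 genes with a stem-loop all carried a GGCCCT arm paired with AGGGCC, and the 24 other genes carried GGCTCT as the first arm. The copy in HIST1H2AC lies at chr6:26124669-26124684 on the plus strand, that in HIST1H4H at chr6:26285131-26285146 on the minus strand and that in HIST2H4B at chr1:149860769-149860784 on the minus strand.

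Genes with a poly(A) signal near an annotated end held most of the counts. The 23 histone genes with a poly(A) signal in the last 50 bases of a transcript had a median of 1948 counts over the 16 libraries and 59.7% of all histone counts, and the 48 without one had a median of 78 counts. The models with a signal are also longer, with a median length of 1668 against 411 bases, and per kilobase (kb) the medians were 1022 and 180 counts. Of these 23 genes, 22 also held the stem-loop, and in 19 of them the signal followed the stem-loop within 1 transcript, as in HIST2H2BE, whose model runs 1729 bases past it. HIST1H2BK had the most counts of any histone gene, 41072, from a 381-base model that ends at the stop codon. Neither element could be found past the coding part of such a model. Many of the 48 genes without a signal have only such models. The split into 23 and 48 genes therefore follows the annotated ends and does not show that a gene lacks the signal. The annotation lists the ends of these models, and where the reads fell within a gene was not analysed here.

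Promoter sequences were available from RefSeq (GRCh38.p14) for 61 of the 71 histone genes and were searched on both strands, from 250 bases before to 50 bases after the start, for 3 motifs: the TATA box TATAAA, the CCAAT box, and the octamer ATTTGCAT. CCAAT was present in 51 of the 61 histone promoters, against 34.6% of all 35116 promoters. TATAAA was present in 41 histone promoters, against 11.5% of all. The octamer was present in 11 of 14 H2A and 14 of 18 H2B promoters and in none of the 29 promoters of H1, H3 and H4 genes, against 1.77% of all. CCAAT was found in every H1, H2A, H2B and H3 promoter examined and in 3 of 13 H4 promoters. The 250 bases before the start are shown for 4 genes that later results turn on, with matches to the 3 motifs on either strand in capitals: the most abundant gene, the H2B gene with the smallest adjusted p in BT474, and the H2B and H2A genes that were lower in HCC1806 spheroids.
HIST1H2BK: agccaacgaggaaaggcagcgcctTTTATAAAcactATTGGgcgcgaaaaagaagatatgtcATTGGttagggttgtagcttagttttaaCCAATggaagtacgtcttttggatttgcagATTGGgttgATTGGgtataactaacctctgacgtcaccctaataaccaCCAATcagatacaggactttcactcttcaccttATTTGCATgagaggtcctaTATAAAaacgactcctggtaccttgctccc
HIST1H2BD: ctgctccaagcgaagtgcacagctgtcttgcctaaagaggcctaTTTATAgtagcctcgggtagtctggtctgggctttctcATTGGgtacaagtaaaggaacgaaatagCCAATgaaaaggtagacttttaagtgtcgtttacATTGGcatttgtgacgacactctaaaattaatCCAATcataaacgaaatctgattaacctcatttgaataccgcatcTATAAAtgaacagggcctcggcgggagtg
HIST1H2BH: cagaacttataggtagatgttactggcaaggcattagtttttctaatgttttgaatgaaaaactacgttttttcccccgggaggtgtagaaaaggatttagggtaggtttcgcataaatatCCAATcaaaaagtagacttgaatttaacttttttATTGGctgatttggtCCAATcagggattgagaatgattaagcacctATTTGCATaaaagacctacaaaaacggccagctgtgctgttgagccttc
HIST2H2AC: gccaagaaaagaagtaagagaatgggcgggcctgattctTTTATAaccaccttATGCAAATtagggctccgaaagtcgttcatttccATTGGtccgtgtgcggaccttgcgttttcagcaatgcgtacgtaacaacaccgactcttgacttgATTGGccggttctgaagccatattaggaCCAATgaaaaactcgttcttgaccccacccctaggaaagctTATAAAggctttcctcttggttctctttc
The HIST1H2BK window is chr6:27146856-27147105 on the minus strand, with 6 CCAAT matches. The HIST1H2BD window is chr6:26157872-26158121, the HIST1H2BH window chr6:26251364-26251613 and the HIST2H2AC window chr1:149886668-149886917, all on the plus strand. The HIST2H2AC stretch is also the upstream stretch of its divergent neighbour HIST2H2BE, read from the other strand, and its octamer appears here in the reverse direction. These matches describe letters in a window and do not say that a factor binds there.

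The 71 genes lie in 4 clusters. HIST1 on chromosome 6 (chr6:25726132-27893843) holds 55 genes and 84.8% of the histone counts, HIST2 (chr1:143905556-149887916) holds 12 genes and 7.61%, HIST3 (chr1:228424845-228460470) holds 3 genes and 7.06%, and HIST4 on chromosome 12 (chr12:14767999-14771131) is the single gene HIST4H4 with 0.526%. By histone type there are 6 H1, 17 H2A, 18 H2B, 15 H3 and 15 H4 genes, which encode 6, 11, 14, 4 and 2 different proteins. The histone genes together held 215452 counts over the 16 libraries, 0.0344% of all counts. The 4 highest genes held 56.3% of them and the 10 highest 84.6%.

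Close copies limit what can be read from single genes. For 53 of the 71 genes no stretch of 150 bases, the read length, was shared with another gene of a histone name. For 8 genes all or nearly all such stretches were shared. Genes without a histone name were not searched for shared stretches. HIST1H4K shared 100% of its stretches, HIST2H4A 92.2%, HIST2H4B 97.0% and HIST1H2AI 51.7%, so counts of these genes may include reads of their copies. Exons of 15 histone genes overlap another gene. How the counting treated reads with several alignments, and whether it used strand, is not given in the sources used here.

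In all libraries 6 of the 71 histone genes had 0 counts: HIST1H2AA and HIST1H2BA, which encode testis forms, and HIST1H3D, HIST1H2AD, HIST1H2AK and HIST2H3PS2. The last 4 are each overlapped over at least 98.0% of their exons by another gene. Another 17 genes had 1 to 49 counts in all. Among the 27 genes too low for the spheroid test, HIST1H3J had the most counts with 101, followed by HIST2H3A with 86, HIST1H2AH with 68, HIST1H4D with 67 and HIST1H4A with 47. HIST1H1T, the testis linker histone, had 0 to 4 counts in each library, and HIST1H1A had 0 to 6. HIST3H3, the testis H3 gene, had 12 counts in day 10 HCC1806 spheroids replicate 1, 13 in CAL148 replicate 1 and 0 to 6 in the other libraries.

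Of the histone genes with counts, HIST1H2BK had the highest mean level, 63.9 CPM over the 16 libraries, and it stayed highest per length, at 168 CPM per kb. The linker gene HIST1H1C followed per length with 64.1 CPM per kb, then the H2B gene HIST1H2BD with 44.9, the H2A gene HIST1H2AC with 33.9 and the H2A gene HIST3H2A with 28.8. In CPM, not divided by length, HIST1H2AC reached 56.6, HIST1H1C 41.1, HIST1H2BD 39.1 and HIST3H2A 25.8. The other 5 of the 10 most abundant genes were the H4 genes HIST1H4H (20.3 CPM) and HIST1H4I (14.1), the H2B genes HIST2H2BE (19.7) and HIST1H2BG (8.80), and the H3 gene HIST1H3E (14.5). Among the linker genes of the HIST1 cluster, none other than HIST1H1C exceeded 1.70 CPM in any library. HIST1H1D peaked at that level in day 10 HCC1806 spheroids replicate 2, HIST1H1E stayed at or below 0.435 CPM and HIST1H1B at or below 0.827 CPM.

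Summed over all 71 genes, and scaled to CPM with TMM factors, histone levels were steady between replicates in spheroids and in BT474. They were further apart in the other monolayers, though in ZR-75-30 mainly on this TMM scale. The summed level was 894 CPM in HCC1806 monolayer replicate 1 and 94.8 CPM in replicate 2, a ratio of 9.43 that became 7.26 with plain library totals. It was 384 and 392 CPM in HCC1806 day 10 spheroids and 379 and 450 CPM in day 20 spheroids. In BT474 it was 276 and 302 CPM in monolayers, 355 and 365 CPM on day 10 and 391 and 387 CPM on day 20. In CAL148 it was 131 and 54.9 CPM, and in ZR-75-30 it was 318 and 551 CPM. With plain library totals the ratio between the ZR-75-30 libraries fell from 1.73 to 1.23, near the 1.20 of HCC1806 day 20 spheroids. That of CAL148 was 2.38 with TMM factors and 2.37 with plain totals. All 4 HCC1806 spheroid libraries thus lay between the 2 monolayer libraries of the same line, whereas in BT474 all 4 spheroid libraries lay above both monolayers. In these bulk samples, fewer cells that make histone mRNA and less histone mRNA per cell cannot be told apart.

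**Figure D1:**
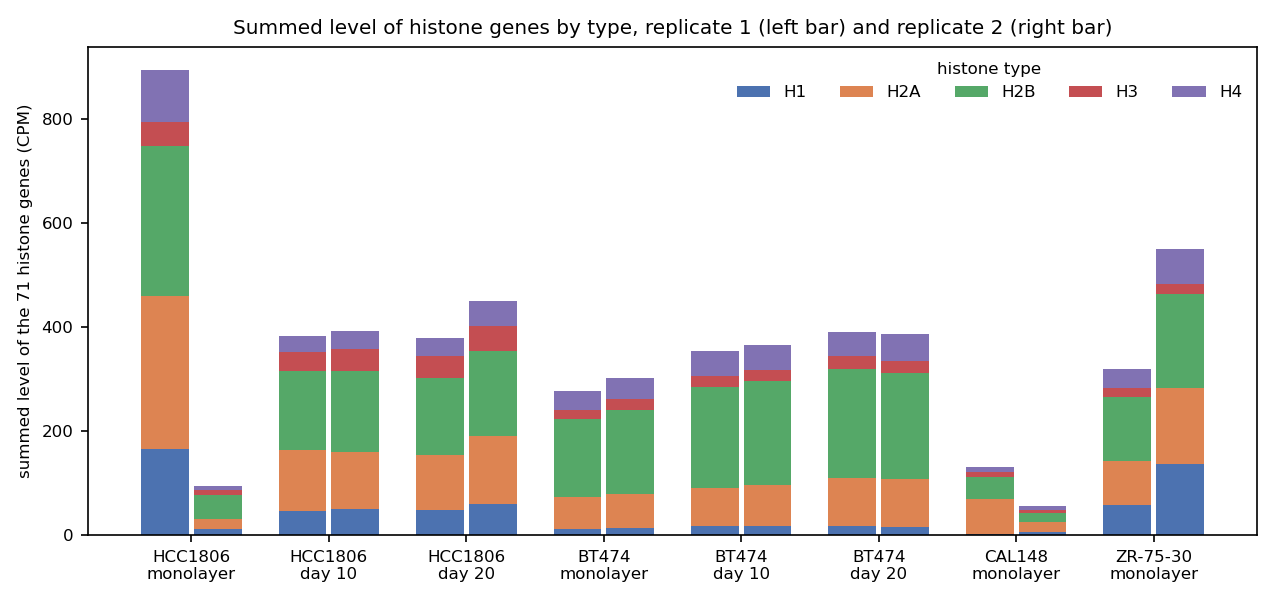
Summed histone level in each of the 16 libraries on the TMM scale (CPM), divided by histone type, with libraries grouped by line and culture. The HCC1806 monolayer libraries lie at 894 and 94.8 CPM, with the 4 spheroid libraries of that line between them, and the BT474 monolayers lie below all BT474 spheroid libraries.

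The makeup of the histone counts differed between lines, and in HCC1806 also between the 2 monolayer libraries. In BT474, H2B genes gave between 52.6% and 54.7% of the summed histone level in all 6 libraries. In CAL148 the HIST3 cluster, mostly HIST3H2A, gave 23.2% and 24.5%, while H1 genes gave 1.99% and 9.33%. In ZR-75-30, H1 genes, almost all HIST1H1C, gave 18.2% and 24.6%, against 4.03% to 4.81% in BT474. These shares are descriptions of 2 libraries per line and were not tested.

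HIST1H2BK was measured at 73.0 and 83.2 CPM in BT474 monolayers, at 35.7 and 52.5 in ZR-75-30, at 14.7 and 3.61 in CAL148, and at 119 and 20.9 in HCC1806 monolayers. HIST1H1C was measured at 57.4 and 135 CPM in ZR-75-30, at 11.6 and 13.8 in BT474 monolayers, at 2.31 and 3.42 in CAL148 and at 164 and 11.3 in HCC1806 monolayers. HIST3H2A was measured at 26.4 and 11.3 CPM in CAL148, at 11.2 and 10.1 in BT474 monolayers, at 21.4 and 47.6 in ZR-75-30 and at 154 and 4.40 in HCC1806 monolayers. The order of the lines therefore differed between genes: CAL148 was lowest for HIST1H2BK and HIST1H1C, but its libraries lay above both BT474 monolayers for HIST3H2A, one of them only just. The 2 HCC1806 monolayers lay on either side of the BT474 and ZR-75-30 monolayers for all 3 genes, so that line's place in the order depended on the replicate. HIST4H4, an H4 gene that lies outside the large clusters, had 2.26 and 1.74 CPM in BT474 monolayers, 0.947 and 1.20 in HCC1806, 0.672 and 0.620 in CAL148 and 0.223 and 0.146 in ZR-75-30. Its 4 lines did not overlap.

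**Figure D2:**
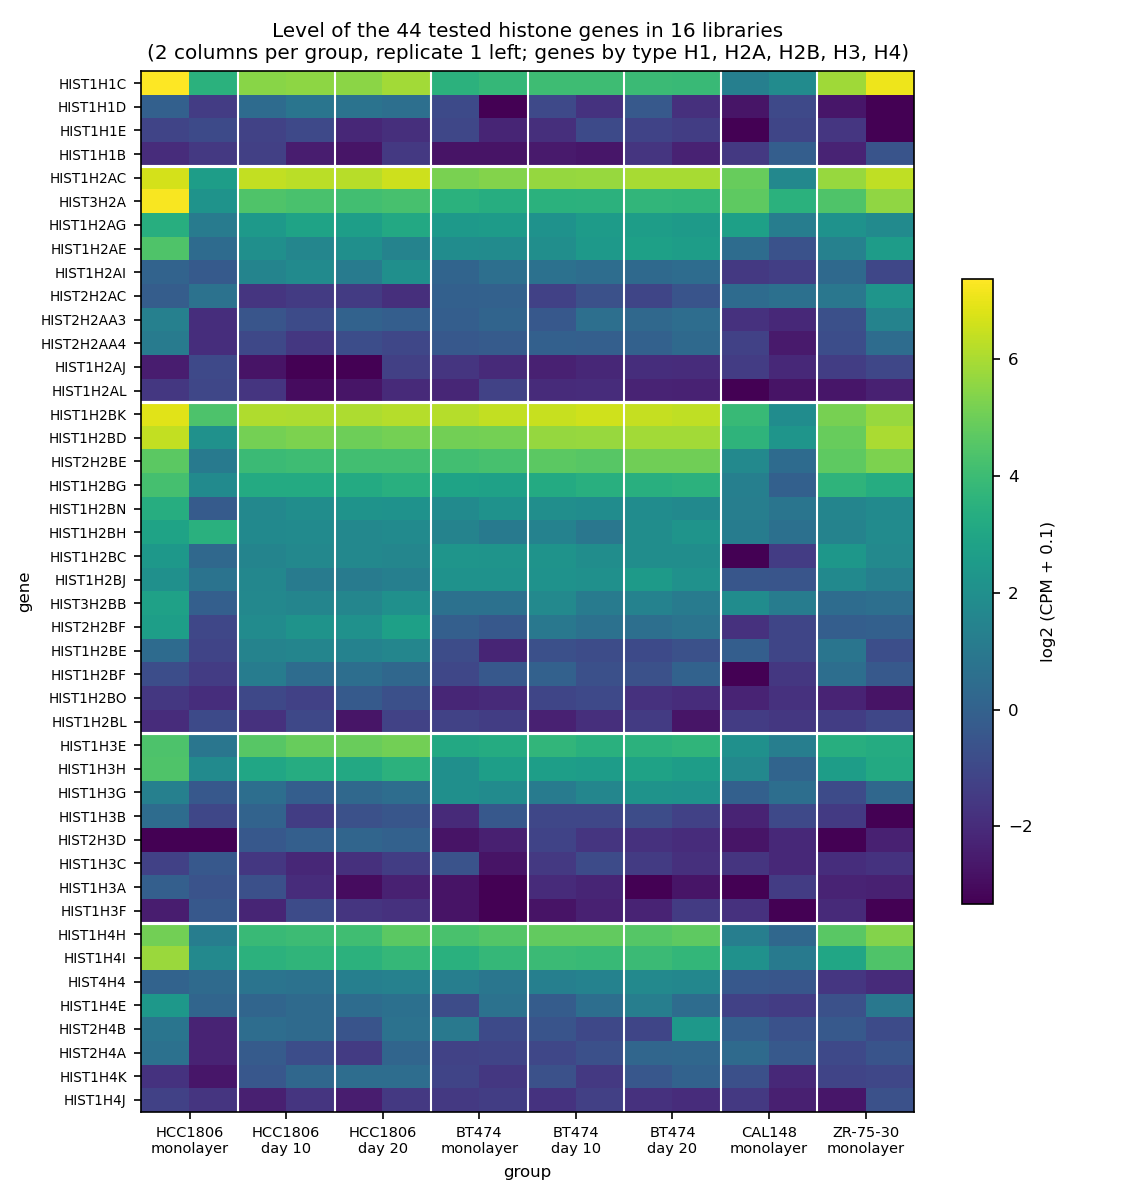
Level of each tested histone gene in the 16 libraries, as colour on the scale log2(CPM + 0.1), with 2 columns per group and genes ordered by histone type and mean level. The left HCC1806 monolayer column is brighter than the right one for 33 of 44 genes.

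A joint test across the 4 lines' monolayers, with edgeR's quasi-likelihood test and Benjamini-Hochberg adjustment, called 3 of 43 histone genes tested, where 33.9% of all genes tested were called. The called genes were HIST1H1C (adjusted p = 0.0323), HIST1H2BH (adjusted p = 0.0417) and HIST4H4 (adjusted p = 0.0435). The highest and lowest line means differed by 5.03 on the log2 scale for HIST1H1C, by 2.35 for HIST1H2BH and by 3.40 for HIST4H4. HIST1H2BH was highest in HCC1806, at 7.14 and 10.8 CPM, and lay between 1.42 and 3.51 CPM in the other 6 monolayer libraries. The share of histone genes called was far under the share of all genes. In simulated data, where few of 18857 genes were changed, and in CAL148 alone, this test recovered 0% of 4-fold changes. Far more genes were called in the real data, so that 0% does not give the power of the test here.

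Within HCC1806, the 2 monolayer libraries differed from each other more widely than the spheroid replicates did. Of the 44 histone genes in the test of both lines, 33 were higher in monolayer replicate 1 and 10 in replicate 2. Over the 29 genes with at least 10 counts in each library the median ratio of replicate 1 to replicate 2 was 5.38, and 23 genes were more than 2-fold higher in replicate 1. Among these 29 genes the widest gap was that of HIST3H2A, at 154 and 4.40 CPM. The widest gap in the opposite order was that of HIST2H2AC, at 0.789 and 1.55 CPM. In day 10 and day 20 spheroids the corresponding median ratios were 0.938 and 0.892. In CAL148 the median ratio was 1.77, with 12 genes over 2-fold higher in replicate 1, and in ZR-75-30 it was 0.680, with 10 genes over 2-fold higher in replicate 2.

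In the HCC1806, CAL148 and ZR-75-30 monolayers the replicate with the higher histone sum had lower levels of the genes of DNA synthesis. The summed level of 27 S phase genes was 2505 CPM in HCC1806 monolayer replicate 1 and 6434 CPM in replicate 2, the reverse of the order of the histone sums. It was 2578 and 4090 CPM in CAL148, whose replicate 1 had the higher histone sum, and 3285 and 1817 CPM in ZR-75-30, whose replicate 2 did. The BT474 monolayers had the opposite order, and in the 4 spheroid groups the sums of the replicates were closer than in those 3 monolayer pairs, and in BT474 day 20 they were nearly tied (S phase sums of 2782 and 2783 CPM, histone sums of 391 and 387). The mitochondrial share moved with the histone sum in the HCC1806 and ZR-75-30 monolayers, but not in CAL148, where it was 1.85% and 2.80%. The part of RNA quality, cell state or handling in these differences was not tested.

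For 23 of the 44 histone genes all 4 HCC1806 spheroid libraries lay between the 2 monolayer libraries, where this held for 27.8% of all genes tested. Of the 10 most abundant histone genes, 9 were among the 23. HIST1H2AC was measured at 102 and 6.09 CPM in monolayers, 83.1 and 76.8 on day 10 and 73.3 and 93.7 on day 20. HIST1H2BD was measured at 83.5 and 4.08 CPM in monolayers, 34.5 and 38.2 on day 10 and 32.4 and 35.1 on day 20. HIST1H1C was measured at 164 and 11.3 CPM in monolayers, 43.7 and 47.2 on day 10 and 45.8 and 58.5 on day 20. In each of these genes the spheroid libraries were close together and both monolayers lay outside them, on either side. HIST1H3E was the exception among the 10, with 20.8 and 1.71 CPM in monolayers and 24.2 to 33.9 CPM in the 4 spheroid libraries. In all, the 4 spheroid libraries lay above both monolayers for 9 genes, where 20.7% of all genes did, and below both for 5, where 13.4% did, and the remaining 7 genes were mixed.

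**Figure D3:**
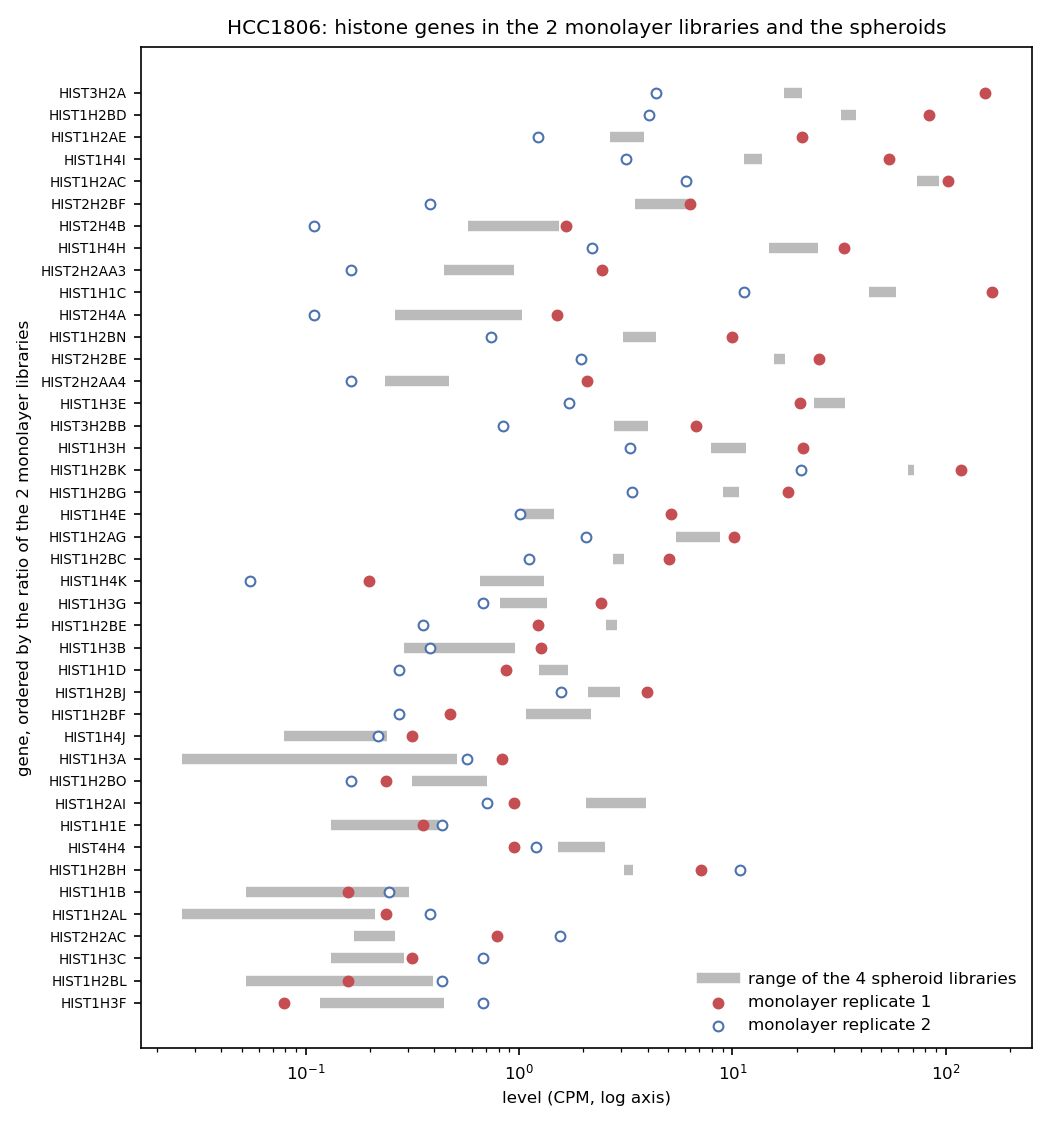
Levels of the tested histone genes in HCC1806 on a log axis (CPM), with monolayer replicate 1 as filled points, replicate 2 as open points and the range of the 4 spheroid libraries as grey bars, for genes with counts in every library. For 23 of 44 genes the spheroid range lies between the 2 monolayer points.

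Against that spread, few histone genes differed between HCC1806 monolayers and spheroids. On day 10, edgeR's test on the 12 HCC1806 and BT474 libraries called 3 of 44 histone genes higher in spheroids, where 5.14% of all genes tested were called higher, and 2 lower, where 3.58% were. On day 20 the same 5 genes were called, 3 higher against 6.24% of all genes and 2 lower against 4.85%. These shares are close to those of all genes. The higher genes were the H3 gene HIST2H3D, the H4 gene HIST1H4K and the H2A gene HIST1H2AI, and the lower genes were the H2B gene HIST1H2BH and the H2A gene HIST2H2AC.

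HIST2H3D (ENSG00000183598, chr1:149813271-149813681, minus strand, 1 exon) had 0 and 0 counts in HCC1806 monolayers, 29 and 32 on day 10 and 39 and 37 on day 20. With a floor of 3 counts over the monolayer group, its level was at least 15.6-fold higher on day 10 and at least 19.7-fold higher on day 20 (adjusted p = 0.0062 and 0.0041 in edgeR). The gene was low throughout, with at most 1.02 CPM, and it had 2 and 4 counts in BT474 monolayers.

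HIST1H4K (ENSG00000273542, chr6:27831216-27831527, minus strand, 1 exon) had 5 and 2 counts in HCC1806 monolayers, 28 and 42 on day 10 and 50 and 54 on day 20. The ratio of the summed CPM was 7.66 on day 10 (95% counting interval 3.53 to 19.8) and 11.5 on day 20 (5.40 to 29.4). In edgeR the adjusted p was 0.0466 on day 10 and 0.0213 on day 20. All of its sequence is shared with copies, so the gene of origin of these reads is uncertain.

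HIST1H2AI (ENSG00000196747, chr6:27808199-27808701, plus strand, 1 exon) was measured at 0.947 and 0.707 CPM in monolayers, 2.73 and 3.32 on day 10 and 2.07 and 3.92 on day 20. The groups did not overlap, and the log2 fold change was 1.87 ± 0.43 (SE, adjusted p = 0.0324 in edgeR) on day 10 and 1.85 ± 0.43 (adjusted p = 0.0289) on day 20.

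HIST1H2BH (ENSG00000275713, chr6:26251651-26253710, plus strand, 1 exon) was measured at 7.14 and 10.8 CPM in monolayers, 3.22 and 3.40 on day 10 and 3.11 and 3.40 on day 20. Its log2 fold change was -1.45 ± 0.35 (SE, adjusted p = 0.0373 in edgeR) on day 10 and -1.47 ± 0.35 (adjusted p = 0.0304) on day 20. It is the most abundant of the 5 called genes, and no 150-base stretch of it is shared with another gene of a histone name.

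HIST2H2AC (ENSG00000184260, chr1:149886975-149887364, plus strand, 1 exon) was measured at 0.789 and 1.55 CPM in monolayers, 0.210 and 0.262 on day 10 and 0.261 and 0.167 on day 20. Its log2 fold change was -2.31 ± 0.56 (SE, adjusted p = 0.0398 in edgeR) on day 10 and -2.45 ± 0.57 (adjusted p = 0.0287) on day 20. Both HIST1H2BH and HIST2H2AC were higher in monolayer replicate 2, against the order of most histone genes.

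These 5 genes stayed called in their directions when either HCC1806 monolayer was left out. They did not all stay called without another library: leaving out any 1 of the HCC1806 spheroid or BT474 libraries left fewer histone genes called on either day. With a BT474 library left out, all histone genes still called were higher ones. The share of all genes called in those fits is not given here, so this loss does not single out the histone genes. In a fit of the 6 HCC1806 libraries alone none of 41 histone genes was called on day 10 or day 20. In that fit 0% of all genes were called on day 10 and 0.0106% on day 20, and 7 and 8 histone genes had an unadjusted p under 0.05. Many abundant genes turned with the monolayer that was kept. Without monolayer replicate 1, 22 histone genes were called higher on day 10 and 3 lower, where 19.6% and 19% of all genes were. Without replicate 2, 4 were called higher and 21 lower, where 29.5% and 23.2% of all genes were. On day 20 the counts were 24 higher and 2 lower without replicate 1, where 20.3% and 20.2% of all genes were, and 5 and 21 without replicate 2, where 29.7% and 23.3% were. On day 10, 15 histone genes were called higher in one case and lower in the other, and on day 20, 14 were. Of the 10 most abundant histone genes this held for 9 on day 10 (not HIST1H3E) and for 8 on day 20 (not HIST1H3E or HIST1H2AC). HIST1H1C, for instance, had a log2 fold change of 1.93 ± 0.17 without replicate 1 and -1.84 ± 0.14 without replicate 2. With 1 monolayer library these p-values hold no spread of that group.

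The median log2 fold change of the 44 histone genes was -0.27 on day 10 and -0.31 on day 20, where the median of all genes was 0.00. The sign of this median turned with library quality weights in limma's voom, to 0.91 and 1.08, where the median of all genes was 0.15 and 0.16, and on deposited FPKM values it was 0.04 and 0.25. No direction of the histone genes as a family can therefore be given for HCC1806 spheroids against monolayers. By type, the 10 tested H2A genes had a median of -1.55 on day 10 and -1.02 on day 20, the 14 H2B genes -0.07 and -0.09, the 8 H3 genes -0.49 and -0.42, the 8 H4 genes -0.29 and -0.03 and the 4 H1 genes -0.09 and -0.61. These medians turned too without monolayer replicate 1, to 1.39 and 1.33 for H2A, 1.60 and 1.78 for H2B, 1.32 and 1.19 for H3, 2.12 and 2.18 for H4 and 0.81 and 0.66 for H1, over the genes tested in that fit.

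Between day 10 and day 20 of HCC1806 spheroid culture no histone gene was called. edgeR called 0 of 44, as of all genes (0%), with 0 of them at an unadjusted p under 0.05, and DESeq2 called 0, with 2 at an unadjusted p under 0.05. The median log2 fold change was 0.08. Without the HCC1806 monolayers, 6.8% of all genes were called between these days and still 0 of 42 histone genes, 2 of them at an unadjusted p under 0.05.

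In BT474, a few abundant H2A and H2B genes were higher in spheroids by small amounts, in a fit of that line's own libraries. In the fit of both lines edgeR called 0 of 44 histone genes on day 10, where 0.129% of all genes were called, and 0 on day 20, where 0.234% were; 2 and 1 histone genes had an unadjusted p under 0.05. DESeq2 called 0 on both days, with 2 and 3 at an unadjusted p under 0.05. That fit shares its estimate of spread with the HCC1806 monolayers. In a fit of the 6 BT474 libraries alone, 5 of 39 histone genes were called higher on day 10, where 8.02% of all genes were, and 6 on day 20, where 8.95% were. None was called lower on either day, where 6.57% and 8.65% of all genes were called lower, and 12 had an unadjusted p under 0.05 on each day. The counts of genes called higher are near the background; the comparison is described for which genes moved. The mitochondrial share of counts moved with the culture as well: it was 2.43% and 2.31% in BT474 monolayers, 5.74% and 3.89% on day 10 and 6.30% and 5.08% on day 20. Of 5 leukocyte markers, LYZ, which encodes lysozyme, was called higher on both days, also in edgeR's fit of both lines; the markers' summed level was 0.499 and 0.330 CPM in monolayers, 15.6 and 18.8 on day 10 and 24.9 and 24.3 on day 20, nearly all of it LYZ in spheroids, and PTPRC was at 0 in all 6 BT474 libraries. The part of the mitochondrial share in the histone result was not tested.

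HIST1H2BD, the H2B gene with 4 CCAAT matches, was measured at 33.6 and 34.4 CPM in BT474 monolayers, 50.3 and 51.9 on day 10 and 59.1 and 58.2 on day 20. In the BT474 fit it rose by 0.58 ± 0.09 on the log2 scale (SE, adjusted p = 0.00144 in edgeR) on day 10 and by 0.78 ± 0.09 (adjusted p = 0.000198) on day 20. HIST1H2AC was measured at 36.4 and 40.9 CPM in monolayers, 50.2 and 51.6 on day 10 and 62.6 and 62.9 on day 20. It rose by 0.39 ± 0.09 (adjusted p = 0.0173 in edgeR) and 0.70 ± 0.09 (adjusted p = 0.000612). HIST2H2BE was measured at 17.3 and 19.2 CPM in monolayers, 25.2 and 23.7 on day 10 and 33.1 and 32.6 on day 20. It rose by 0.42 ± 0.11 (adjusted p = 0.0250 in edgeR) and 0.85 ± 0.11 (adjusted p = 0.000461). In all 3 genes every spheroid library lay above both monolayers, and both day 20 libraries lay above both day 10 libraries.

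The other genes called in BT474 were called on 1 of the 2 days. HIST1H4H, an H4 gene, was measured at 19.6 and 22.7 CPM in monolayers, 27.5 and 27.9 on day 10 and 23.2 and 26.0 on day 20, and was called on day 10 (log2 fold change 0.39 ± 0.12, adjusted p = 0.0466 in edgeR). HIST2H2BF was measured at 0.832 and 0.660 CPM, 1.87 and 1.5, and 1.42 and 1.65, and was called on day 10 (1.16 ± 0.33, adjusted p = 0.0361). HIST1H2BG was measured at 7.29 and 6.76 CPM, 9.26 and 10.5, and 10.5 and 11.6, and was called on day 20 (0.65 ± 0.15, adjusted p = 0.0145). HIST1H2AE was measured at 3.56 and 3.49 CPM, 3.78 and 5.19, and 6.65 and 6.09, and was called on day 20 (0.85 ± 0.21, adjusted p = 0.0176). HIST2H4A, which shares 92.2% of its sequence stretches, had 14 and 15 counts, 16 and 36, and 39 and 42, and was called on day 20 (1.63 ± 0.46, adjusted p = 0.0317). In none of these 5 genes did a spheroid library fall to the monolayer level on the day it was called.

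HIST1H2BK, the most abundant histone gene, did not pass the test in BT474. It was measured at 73.0 and 83.2 CPM in monolayers, 86.9 and 95.5 on day 10 and 86.1 and 79.9 on day 20, with a log2 fold change of 0.22 ± 0.09 (adjusted p = 0.146) and 0.09 ± 0.09 (adjusted p = 0.590) in edgeR. HIST3H2A, at 10.1 to 13.1 CPM over the 6 libraries, and the linker gene HIST1H1C, at 11.6 and 13.8 CPM in monolayers and 15 to 16.6 CPM in spheroids, did not pass either. By type, the median log2 fold changes on day 20 were 0.57 for the 14 H2B genes tested, 0.72 for 8 H4, 0.35 for 8 H2A, 0.35 for 3 H1 and 0.08 for 6 H3 genes. Over all 39 genes the median was 0.28 on day 10 and 0.39 on day 20, where that of all genes was 0.00. Without overlap between libraries, 17 of 39 histone genes were higher on day 10, where 28.9% of all genes were, and 4 were lower, where 26.9% were. On day 20, 19 were higher, where 28.9% of all genes were, and 4 lower, where 27.6% were.

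**Figure D4:**
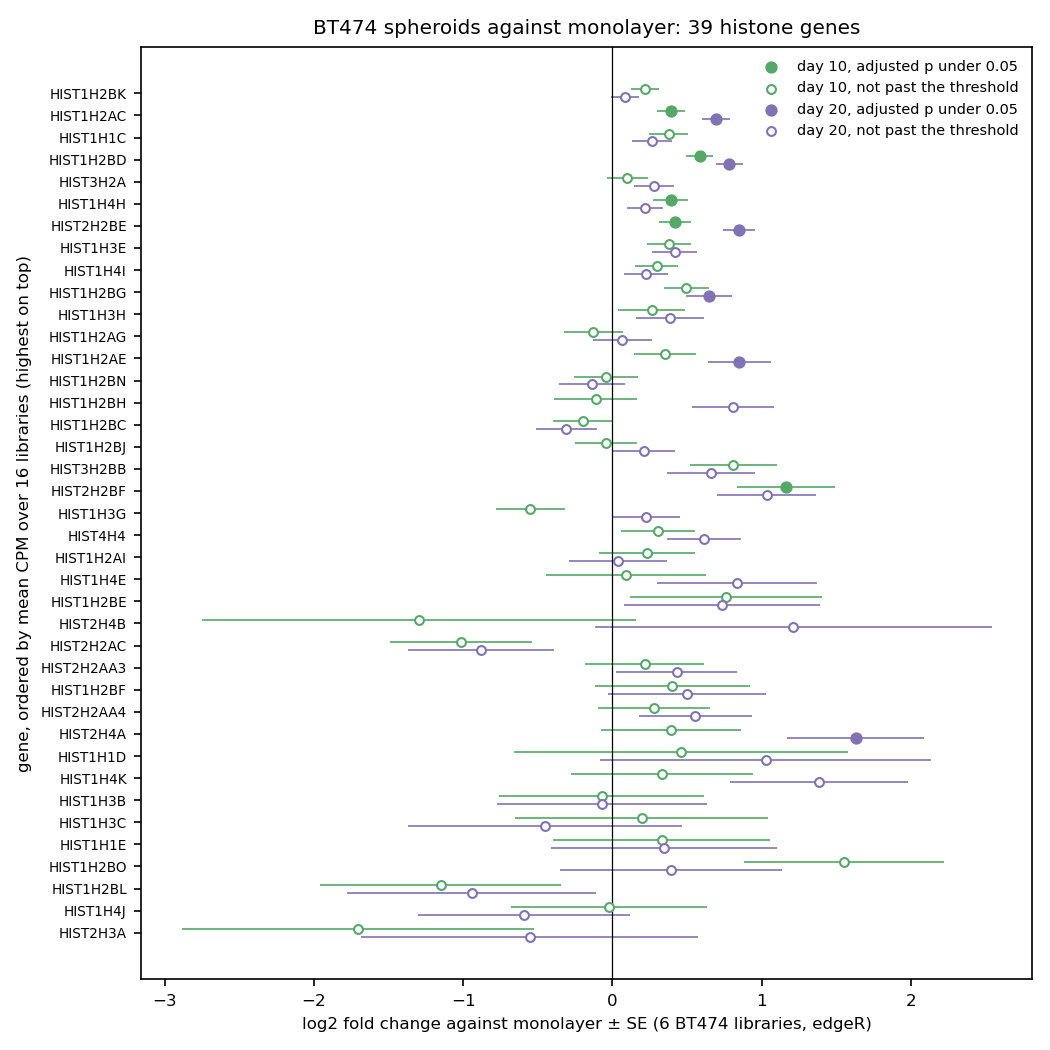
Log2 fold change of each histone gene tested in the 6 BT474 libraries, spheroids against monolayers, with bars for the standard error and filled points for genes at adjusted p under 0.05. The called genes, 5 on day 10 and 6 on day 20, all lie above 0.

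Leaving out 1 BT474 library at a time changed the number of histone genes called in the BT474 fit. The number was lowest on day 10 without either day 10 library, and on day 20 without either day 20 library. The share of all genes called in these fits is not given here, so these changes do not single out the histone genes. With the HCC1806 monolayers left out of the fit of both lines, 4 of 42 histone genes were called higher on day 10, where 6.58% of all genes were, and 5 on day 20, where 7.4% were. None was called lower, where 5.67% and 7.24% of all genes were. Between the days, edgeR called 0 of 44 histone genes in both lines' fit, as of all genes (0%), with 1 at an unadjusted p under 0.05, and DESeq2 called 0 with 1. In the BT474 libraries alone 0 of 39 were called, where 0.155% of all genes were, with 7 at an unadjusted p under 0.05.

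The difference between the lines in the spheroid effect was tested directly. On day 10, 0 of 44 histone genes differed in edgeR, where 1.35% of all genes did, with 4 at an unadjusted p under 0.05. DESeq2 called 2, a count that stands without the share of all genes DESeq2 called and does not single out the histone genes. On day 20, 1 histone gene had a higher effect in HCC1806 than in BT474, where 1.79% of all genes did, and 1 a lower effect, where 0.98% did. HIST2H3D differed by 7.06 ± 1.35 (SE, adjusted p = 0.0416 in edgeR), a value fitted against monolayers with 0 counts. HIST1H2BH differed by -2.28 ± 0.49 (adjusted p = 0.0483 in edgeR): it was lower in HCC1806 spheroids, whereas in BT474 it was measured at 2.64 and 2.03 CPM in monolayers and 3.63 and 4.55 CPM on day 20. Both comparisons share the estimate of spread and rest on the HCC1806 monolayers.

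Many H2A and H2B genes lie head to head and share the stretch between their starts, and 12 such pairs of histone genes started within 500 bases of each other. Members of a pair were often counted at very different levels per length. HIST2H2BE and HIST2H2AC, whose shared upstream stretch is printed above, start 323 bases apart. In BT474 monolayers HIST2H2BE stood at 7.87 and 8.74 CPM per kb and HIST2H2AC at 2.19 and 2.30. On day 20 HIST2H2BE stood at 15.1 and 14.8 CPM per kb and HIST2H2AC at 0.959 and 1.47. HIST2H2BE was thus higher in each day 20 library than in each monolayer library and HIST2H2AC lower, although HIST2H2AC did not pass the test (log2 fold change -0.88 ± 0.49, adjusted p = 0.245 in the BT474 fit).

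In HCC1806 monolayers the 2 genes of this pair also moved apart between replicates, with HIST2H2BE at 11.6 and 0.892 CPM per kb and HIST2H2AC at 2.02 and 3.97. In HCC1806 day 10 spheroids HIST2H2BE stood at 7.11 and 7.54 CPM per kb and HIST2H2AC at 0.538 and 0.671. In CAL148 the order was turned, with HIST2H2BE at 1.42 and 0.565 CPM per kb and HIST2H2AC at 3.17 and 3.65. In ZR-75-30 HIST2H2BE stood at 11.9 and 17.5 CPM per kb and HIST2H2AC at 4.57 and 11.9. The model of HIST2H2BE carries a stem-loop with a poly(A) signal downstream. That of HIST2H2AC ends at the stop codon, so neither could be searched for past it.

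Other pairs were also uneven, in counts per kb summed over the 16 libraries. HIST1H2BK had 107801 counts per kb and HIST1H2AH, 331 bases away, 176. HIST3H2A had 15162 counts per kb and HIST3H2BB, 234 bases away, 676. HIST1H2AC had 20718 counts per kb and HIST1H2BC, 219 bases away, 2405. Not all pairs were so uneven. HIST1H2BG had 3553 counts per kb and HIST1H2AE, 283 bases away, 5322, although HIST1H2BG had more counts before division by length, 5450 against 2709. HIST1H2BJ had 2051 counts per kb and HIST1H2AG, 292 bases away, 1554.

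**Figure D5:**
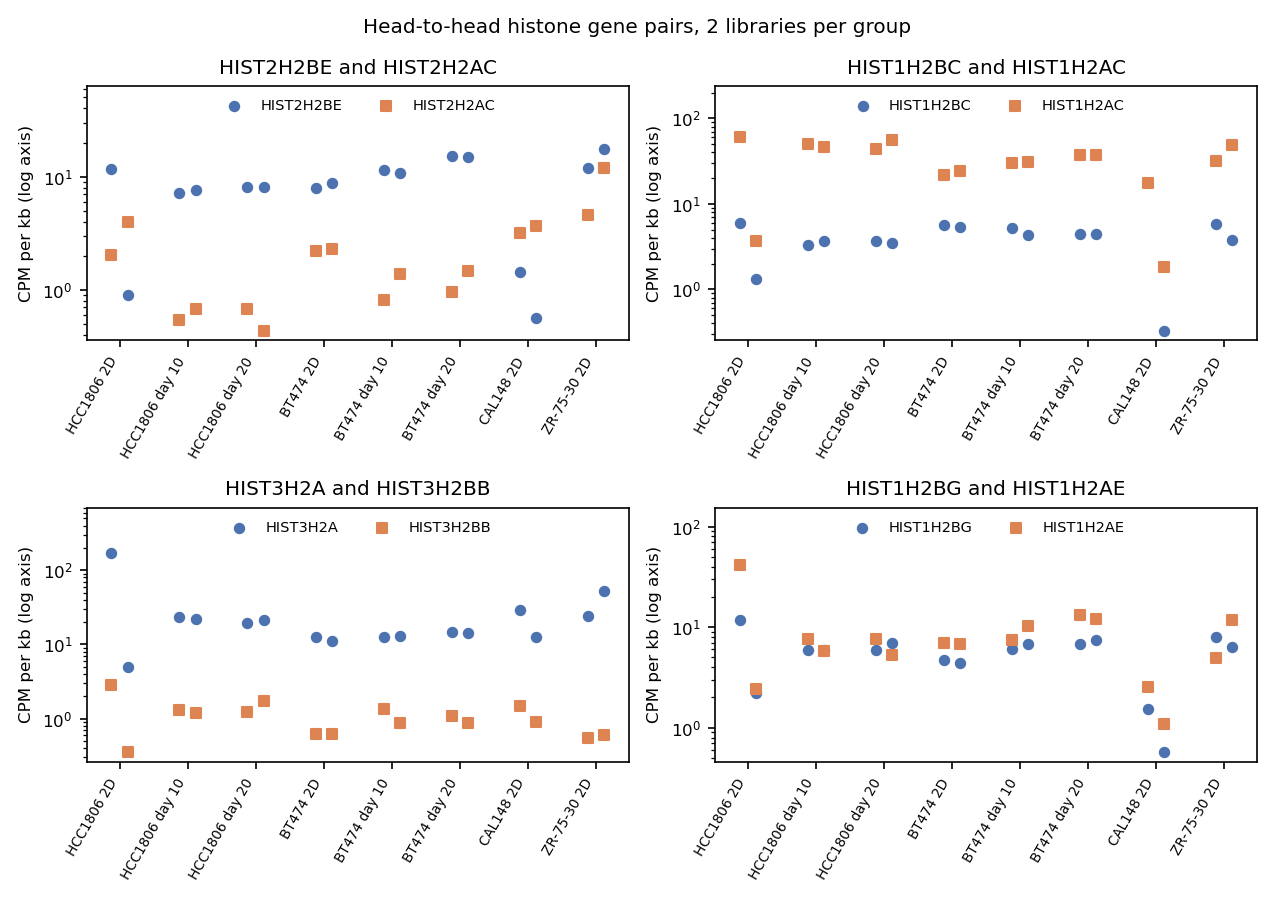
Levels per length (CPM per kb, log axis) of the 2 genes of head-to-head pairs in each library. HIST2H2AC lies below HIST2H2BE in all 6 BT474 libraries and above it in both CAL148 libraries.

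Beside the clustered genes, 4 lists of genes around histone supply were described: replacement and other variant histones, factors that transcribe and process histone mRNA, histone chaperones, and S phase genes. In HCC1806 day 10 spheroids 9 of 27 S phase genes were lower and 0 higher, where 3.58% of all genes tested were lower. GINS2, of the replicative helicase, fell by 1.67 ± 0.20 on the log2 scale (SE), RRM2, of ribonucleotide reductase, by 1.54 ± 0.26 and CDC45, another helicase subunit, by 1.49 ± 0.24. On day 20, 13 of 27 were lower, where 4.85% of all genes were, led by TK1, a thymidine kinase, GINS2 and CDT1, a licensing factor, with log2 fold changes of -2.08 ± 0.21, -1.95 ± 0.20 and -1.93 ± 0.15. Without HCC1806 monolayer replicate 1, 27 of 27 were lower on both days, and without replicate 2, 12 were lower and 11 higher on day 10, and 13 lower and 9 higher on day 20. In edgeR on the HCC1806 libraries alone, 0 of 27 were called on either day, with 12 and 13 at an unadjusted p under 0.05, and 0 genes of the other 3 lists were called. Cell type markers moved in the same comparison. On day 20, 3 of 5 epithelial markers (KRT18, KRT8 and EPCAM) were lower, and 2 of the 4 fibroblast markers tested (COL3A1 and COL1A1) were higher. The summed level of the epithelial markers was 6107 and 3641 CPM in HCC1806 monolayers, 3847 and 3489 on day 10 and 2542 and 2768 on day 20, and that of the fibroblast markers was 45.1 and 21.0, 67.4 and 66.6, and 97.6 and 82.6 CPM, with COL1A2 at 0 in monolayers and on day 10. Their part in the S phase and histone results was not tested.

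Of 24 histone chaperones, 4 were lower in HCC1806 day 10 spheroids, where 3.58% of all genes were, and 5 on day 20, where 4.85% were, with 0 higher. Without monolayer replicate 1, 18 were lower and 0 higher on either day, and without replicate 2, 9 were higher and 9 lower on day 10 and 11 higher and 9 lower on day 20. CHAF1A and CHAF1B, of the complex that deposits H3 and H4 at replication forks, fell by 1.32 ± 0.17 and 1.43 ± 0.20 on day 10. ASF1B, which hands H3 and H4 to that complex, fell by 1.03 ± 0.16 on day 10 and by 2.07 ± 0.16 on day 20. ASF1B was measured at 109 and 91.2 CPM in HCC1806 monolayers, 50.5 and 47.8 on day 10 and 24.7 and 22.9 on day 20. Of 12 variant histone genes, 3 were lower on day 10 and 4 on day 20, against the same shares of all genes, and 0 were higher. Without monolayer replicate 1, 4 were higher and 6 lower on day 10 and 3 and 7 on day 20, and without replicate 2, 1 was higher and 9 lower on day 10 and 1 and 10 on day 20. H2AFZ fell by 1.29 ± 0.25 and 1.48 ± 0.25, H2AFX by 1.17 ± 0.15 and 1.63 ± 0.15, H2AFV by 0.56 ± 0.14 and 0.82 ± 0.15, and H2AFJ, on day 20, by 1.63 ± 0.40. H2AFZ was measured at 437 and 245 CPM in monolayers, 143 and 136 on day 10 and 129 and 117 on day 20.

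Of 24 factors of histone mRNA, 2 were lower on day 10, CPSF4 and SNRPD3, which fell by 1.08 ± 0.23 and 0.80 ± 0.16, where 3.58% of all genes were lower. Without monolayer replicate 1, 18 were lower on day 10 and 19 on day 20, with 0 higher, and without replicate 2, 7 were higher and 10 lower on day 10 and 6 and 9 on day 20. On day 20, 5 were lower with both monolayers, where 4.85% of all genes were, led by LSM10, which fell by 1.11 ± 0.26, CPSF4 by 1.09 ± 0.23 and CCNE1, a cyclin of S phase entry, by 1.06 ± 0.27. SLBP, the stem-loop binding protein, was measured at 40.7 and 86.6 CPM in HCC1806 monolayers, 45.2 and 44.5 on day 10 and 39.3 and 38.1 on day 20. Its log2 fold change was -0.51 ± 0.29 (adjusted p = 0.312 in edgeR) on day 10. NPAT, the activator of histone gene transcription, was measured at 11.2 and 41.4 CPM in HCC1806 monolayers and 32.5 to 35.4 CPM in the 4 spheroid libraries, with a log2 fold change of 0.38 ± 0.49 on day 10 (adjusted p = 0.672). The proliferation marker MKI67 was measured at 163 and 1198 CPM in the monolayers and 202 to 354 CPM in spheroids. In all 3 genes monolayer replicate 2, the library with fewer histone counts, was the higher one.

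The polyadenylated variant genes H1F0 and H3F3B followed the other order. H1F0, a linker histone of resting cells, was measured at 1673 and 138 CPM in HCC1806 monolayers and 406 to 505 CPM in spheroids. H3F3B, which encodes replacement H3, was measured at 1881 and 829 CPM in monolayers and 590 to 706 CPM in spheroids. Neither passed the test on day 10 (adjusted p = 0.546 and 0.107 in edgeR).

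In BT474 spheroids, 0 genes of these 4 lists were called in the fit of both lines on day 10 or day 20, with 1 S phase gene at an unadjusted p under 0.05 on each day. In the BT474 libraries alone, 7 of 27 S phase genes were lower on day 10, where 6.57% of all genes were, and 6 on day 20, where 8.65% were, and 0 were higher. In the same fit HIST1H2BD, HIST1H2AC and HIST2H2BE were higher on both days. Of 11 variant histone genes, 1 was higher and 1 lower on day 10, and 4 were higher and 0 lower on day 20, where 8.95% of all genes were higher: H3F3A, which encodes replacement H3, rose by 0.54 ± 0.07 on the log2 scale (SE), H1F0 by 0.37 ± 0.08 and H3F3B by 0.29 ± 0.07, and H1FX was the other. Of 23 chaperones, 3 were lower on day 10, and 4 were lower and 1 higher on day 20. Of 24 factors of histone mRNA, 1 was lower on each day, POU2F1, which encodes the octamer-binding protein OCT1. Summed S phase levels were 3005 and 3397 CPM in BT474 monolayers, 2742 and 2627 on day 10 and 2782 and 2783 on day 20. SLBP, at 64.9 to 80.2 CPM over the 6 BT474 libraries, and NPAT, at 11.2 to 18 CPM, did not pass the test in the fit of both lines.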

How the data were processed

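Poly(A)-selected, 150 bp paired-end RNA-seq of 16 libraries was used, per the labels' protocols. The authors deposited whole-number counts per gene and FPKM values per gene. HISAT2 2.2.1, featureCounts 2.0.6 and GRCh38 are named in the submitters' processing notes. Whether counting used strand, single mates or multiply aligned reads is not given in the sources used here. All 71 histone genes matched GENCODE 29 by position. Library totals were 29.7 to 72.5 M counts.

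Counts were tested with edgeR 4.0.16 (R 4.3.3), with TMM scaling, the filter filterByExpr at a minimum count of 10, a robust quasi-likelihood fit and Benjamini-Hochberg adjustment over all genes tested, at 0.05. For spheroid comparisons, HCC1806 and BT474 entered 1 joint fit (12 libraries, 6 groups), and for the monolayer test the 8 monolayers another. CPM values use TMM factors of all 16 libraries, and levels per kb divide by the deposited gene length. Alternatives were RLE factors, no or a stricter filter (minimum 50), all 16 libraries, each line alone, a replicate block, DESeq2 1.42.0, limma 3.58.1 on log2(deposited FPKM + 0.1), voom quality weights, halved counts and leaving out each library. Leaving out libraries within a line's own fit was added after the data were seen.

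Genes named are the 10 histone genes with the highest mean CPM, up to 5 called genes in each direction per comparison, the 5 highest genes under the filter, and of each list up to 3 called genes per direction, with SLBP, NPAT, MKI67, H2AFZ, H3F3B and H1F0. Other histone genes named, such as the low linker genes and the head-to-head pairs, were chosen after their values were seen. The histone genes and the lists (variant histones, histone mRNA factors, histone chaperones, S phase genes and cell type markers) were chosen with earlier results of these data known. On simulated data edgeR recovered 38% of 4-fold and 1% of 2-fold changes for HCC1806 day 20 (20088 genes), 34% and 1% for BT474 day 20 (20052 genes) and 97% and 73% in the BT474 libraries alone (17029 genes). Few of the genes were changed in each simulation, so these shares do not give the power where many genes change. Figures were drawn with matplotlib 3.10.9.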

Additional observations from a re-analysis of the deposited data

Results flagged for a closer look

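Of the genes named for a spheroid comparison, 11 had a spheroid effect that differed between HCC1806 and BT474 in edgeR's test of the difference (adjusted p under 0.05), CDT1 on both days and the others on day 20. These 11 were named because they were called, in a spheroid comparison or in this test itself, so their number is no result about a set. Of all genes tested, 1.35% differed on day 10, and on day 20 1.79% had a higher effect in HCC1806 and 0.98% a lower one. Among the histone genes the difference on day 20, HCC1806 minus BT474 on the log2 scale, was 7.06 ± 1.35 (SE) for HIST2H3D, with 0 counts in both HCC1806 monolayers, and -2.28 ± 0.49 for HIST1H2BH. Among the S phase genes it was -1.12 ± 0.21 on day 10 and -1.69 ± 0.21 on day 20 for CDT1, -1.82 ± 0.29 for TK1 and -1.56 ± 0.27 for GINS2. Among the chaperones it was -2.00 ± 0.22 for ASF1B, -1.58 ± 0.23 for CHAF1A, -1.30 ± 0.28 for CHAF1B and -1.50 ± 0.20 for NASP. It was -1.54 ± 0.21 for the variant histone H2AFX and -1.07 ± 0.23 for SNRPD3, a core protein of the small ribonucleoprotein that processes histone mRNA. All of these rest on the HCC1806 monolayers, whose 2 libraries stood apart.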

How the results depend on the processing

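Over 80 single-gene results, 2006 alternative values were computed, of which 1319 kept direction and side of the threshold, 608 fell short of it, 77 newly passed it and 2 turned direction. Of 60 called results, 1 stayed called under every alternative run, TK1 in the monolayer test. The 2 that turned were HIST1H2BK in BT474 on day 20, from 0.09 to -0.00436 without BT474 monolayer replicate 1 and to -0.00878 in the BT474 fit without it. Left out in turn, the libraries moved HIST1H2BK, BT474 day 20 spheroid vs monolayer, from -0.00436 to 0.185 in the fit of both lines and from -0.00878 to 0.187 in the BT474 fit.

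Histone genes called moved as follows. The share of all genes called moved too. For HCC1806 day 10 it was 5.14% higher and 3.58% lower in the fit of both lines and 0% in the line alone. For BT474 day 10 it was 0.129% in the fit of both lines, and 8.02% higher and 6.57% lower in the line alone. The counts in this section, also those with libraries left out, stand without such shares and do not single out the histone genes. For HCC1806 day 10 (5 called), 1 was called with all 16 libraries, 0 in the line alone, 8 without a filter and 0 with voom quality weights. For HCC1806 day 20 (5), 9 were called by DESeq2, 3 with all 16 libraries, 9 by limma on FPKM, 0 in the line alone, 9 without a filter and 0 with voom weights. For BT474 day 10 (0), 5 were called in the line alone, 1 with voom weights and 4 without the HCC1806 monolayers, and for day 20 (0) 6, 3 and 5. For BT474 day 20 against day 10 (0), 2 were called with voom weights. For the line difference on day 10 (0), 2 were called by DESeq2, 1 by limma and 1 without a filter. On day 20 (2), 0 were called with all 16 libraries, 1 with halved counts, 1 with a minimum count of 50, 4 without a filter and 0 with voom weights. For the monolayer test (3), 9 were called by DESeq2, 16 with all 16 libraries, 6 by limma, 13 without a filter and 1 with voom weights.

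Leaving out 1 library at a time gave 0 to 25 histone genes called for HCC1806 day 10 and 1 to 26 for day 20 in the fit of both lines, 0 to 27 and 0 to 28 in the line alone (25 on either day without monolayer replicate 2), and 0 to 0 between the days. It gave 0 to 9 for BT474 day 10, 0 to 12 for day 20 and 0 to 4 between the days, 0 to 18 and 0 to 22 for the line differences on days 10 and 20, and 0 to 18 for the monolayer test. With the replicate block, 1 histone gene was called for HCC1806 day 10, 4 for day 20, 0 for the line difference on day 20 and 0 for the monolayer test, and it changed no other count. No pairing by replicate number was seen: the same-numbered deviations of 28 pairs of groups correlated between -0.442 and 0.0767. With 2 libraries per group, these values cannot show whether same-numbered libraries were cultured or handled together.

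Summed levels moved past the spread of replicates with plain totals, from 388 to 418 CPM in HCC1806 day 10 and from 389 to 381 in BT474 day 20. Genes that encode the same protein as another gene of their cluster were also left out. The sums were then 286 and 299 CPM in HCC1806 day 10 and 20, and 209, 264 and 287 CPM in BT474 monolayers, day 10 and day 20. The cause of each change was not tested. Depth limits the 23 genes under 50 counts in all, and low even counts overstate their precision.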

Other observations

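HIST2H4B, an H4 gene that shares 97.0% of its 150-base stretches with copies, had 14 and 194 counts in the 2 BT474 day 20 libraries and 81 and 18 in the BT474 monolayers, while HIST2H4A had 39 and 42 and 14 and 15 counts in the same libraries. HIST1H4E had 19 and 65 counts in BT474 monolayers and 86 and 48 on day 20. Both were chosen after their values were seen. These were the widest replicate gaps among such genes in those groups, whose median ratios of replicate 1 to replicate 2 over genes with at least 10 counts in each were 0.933 and 1.02.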
